A study of Mus musculus with 6 samples.

Results

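The 10 genes Cbln1, Cbln2, Cntnap4, Tmem132b, Spock1, Trhde, AI593442, Gap43, Hpse2 and Scube1 were taken from the 13203 genes of the deposited expression table by their symbols. They had been picked on the same values reported here, as genes near silent in control kidneys and covered in every mutant kidney, or as neural markers, so their difference between the groups is a description and carries no test. Ribosomal RNA was depleted from the total RNA of whole mouse kidneys at E17.5 before sequencing. The 3 mutant kidneys carried Six2Cre with Brg1 flx/flx, and the 3 control kidneys carried Brg1 flx/flx with no Cre named in their labels. Both groups thus share the floxed Brg1 alleles, and the Cre transgene and the loss of Brg1 cannot be told apart. Smarca4 is the gene for Brg1, the motor subunit of SWI/SNF complexes, which move nucleosomes, and Six2 drives Cre in the nephron progenitors, so that these cells and the nephron epithelia that descend from them are targeted. Nothing in the labels says whether the kidneys of a group came from separate litters, and p-values measure only the spread between these samples.

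All 10 genes encode proteins, and most are known from neurons or from the extracellular space of the brain. Cerebellins are secreted proteins of the C1q family that bridge presynaptic neurexins to postsynaptic delta-type glutamate receptors and so organise synapses, and contactin-associated proteins are membrane relatives of the neurexins. Neural genes are kept silent in non-neural tissue by repressors such as REST, which works with chromatin-modifying partners. The kidney itself holds nerve fibres, and many adhesion and matrix proteins of neurons are also made by its stroma.

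Levels are normalised coverage, the number of sequenced bases over a gene scaled by the authors to a common library total, in kb (1000 scaled bases). A gene with 0 covered bases is listed at the value of 1 base, which is 0.00134, 0.00132 and 0.000867 kb in control libraries con1 to con3. Before scaling, the genes of the table together held 726 to 1126 Mb per library in control and 934 to 1209 Mb in mutant. A gene is in the table where at least 1 group mean exceeded 3.4 kb. Smarca4 was at 434, 419 and 371 kb in control and at 316, 333 and 268 kb in mutant (limma adjusted p = 0.00481). These values span the gene in all cells of the kidney and do not isolate the floxed part.

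Each of the 10 genes had its lowest mutant library above its highest control library. For the genes picked as near silent in control this followed from the choice. Of all genes, 26.5% showed this order and 29.8% the reverse. The mutant mean was at least 10 times the control mean in 8 of the 10 genes and in 28 of all genes (0.212%). The control mean lay under 3.4 kb in 7 of the 10 genes, so that these entered the table only through the mutant group and had to differ. The other 3, Gap43, Tmem132b and Scube1, were covered in control as well. Control coverage was under 1 kb in every control library for 6 genes. Of these, Spock1 had the highest single control value (0.706 kb), and the nearest gene outside this group was Hpse2, with a highest control value of 1.16 kb.

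**Figure D1:**
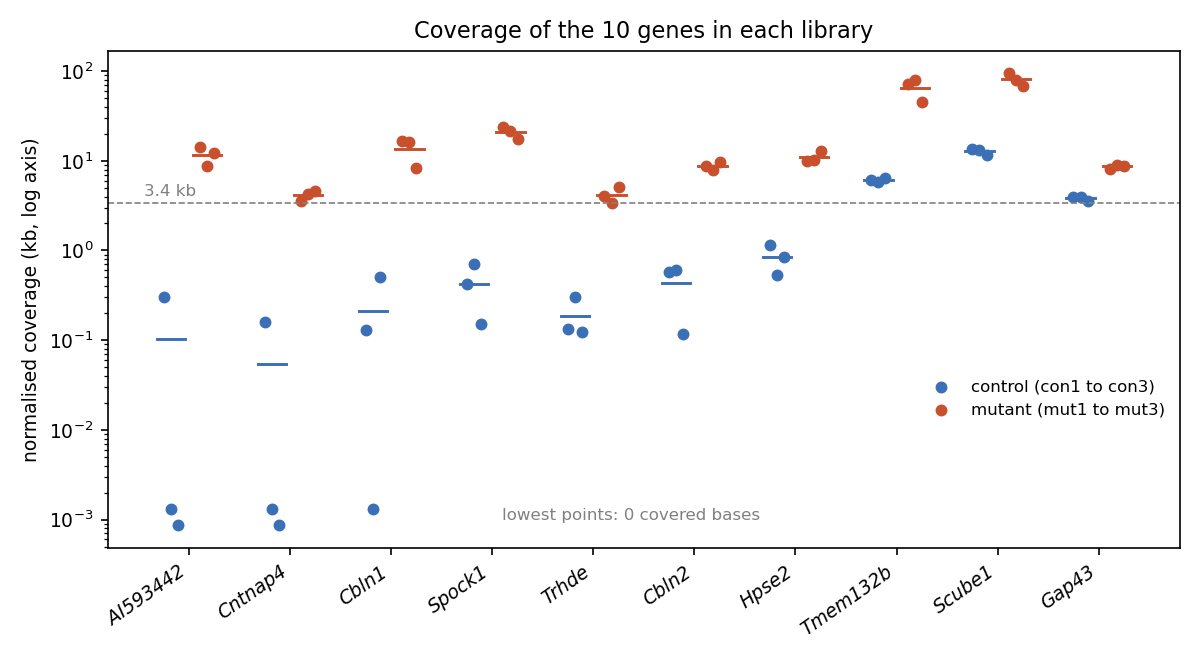
Normalised coverage in kb on a log axis for each of the 10 genes, ordered by the ratio of group means; points are libraries, short lines are group means and the dashed line is the 3.4 kb limit of the table. The lowest control points, of AI593442, Cntnap4 and Cbln1, stand for 0 covered bases, and no mutant point of any gene reaches down to its control points.

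The synapse-organising genes were almost without coverage in control. Cbln1 (ENSMUSG00000031654.16, chromosome 8, 87468405 to 87472609, minus strand, mm10) encodes cerebellin 1, which cerebellar granule cells release onto Purkinje cells. Its control coverage was 0.129, 0.00132 and 0.509 kb, that is 95, 0 and 586 bases before scaling. Its mutant coverage was 16.7, 16.1 and 8.24 kb, or 15988, 19985 and 9472 bases. The means were 0.213 ± 0.264 and 13.7 ± 4.73 kb (SD, n = 3 each), a ratio of 64.3, and the lowest mutant library was 16.2 times the highest control library. Among the mutant libraries mut3 stood low, at about 0.602 of the mutant mean, and this gene had the widest spread of the 10 in mutant (coefficient of variation 34.6%).

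Cbln2 (ENSMUSG00000024647.14, chromosome 18, 86711110 to 86718283, plus strand) encodes a cerebellin that acts in other parts of the brain. It was at 0.570, 0.599 and 0.118 kb in control and at 8.79, 7.83 and 9.65 kb in mutant. The means were 0.429 ± 0.270 and 8.75 ± 0.907 kb, a ratio of 20.4. Unlike Cbln1 it was highest in mut3, and its mutant libraries lay within 1.23-fold of each other, against 2.03-fold for Cbln1.

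Cntnap4 (ENSMUSG00000031772.17, chromosome 8, 112570043 to 112882717, plus strand), a contactin-associated protein of interneurons, had 118, 0 and 0 covered bases in control. In mutant it had 3393, 5284 and 5241 bases, or 3.55, 4.27 and 4.56 kb. The mutant mean of 4.12 ± 0.522 kb was 76.3 times the control mean, but that control mean rested on con1 alone, so the ratio has little precision. The lowest mutant library was 22.2 times con1. Cbln1 and Cntnap4 lie on the same chromosome but far apart, and each overlaps an annotated non-coding gene on the opposite strand (Gm2694 and Gm45904). Whether reads were counted by strand is not stated, so reads of these partners cannot be told apart from those of the named genes. Cntnap4 also overlaps the non-coding gene Gm22664 on its own strand, where counting by strand would not separate them.

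AI593442 (ENSMUSG00000078307.3, chromosome 9, 52673042 to 52679780, minus strand), a protein-coding gene named only by an expressed-sequence symbol, was the most uneven of the 10 genes. It had 225, 0 and 0 covered bases in control and 13520, 10924 and 14171 in mutant. The normalised mutant values were 14.1, 8.82 and 12.3 kb (mean 11.8 ± 2.70), and the ratio of means was 115, with the control mean again resting on con1. By this ratio it ranked 2 of all genes, behind Six3, which had 0 covered bases in every control library and 6195, 8270 and 3126 in mutant. The lowest mutant library of AI593442 was 29.0 times con1, the widest such gap among the 10 genes.

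Of the secreted and cell-surface enzymes and proteoglycans, Spock1 had the highest coverage among the genes silent in control. Spock1 (ENSMUSG00000056222.15, chromosome 13, 57421195 to 57908332, minus strand) encodes testican 1, a proteoglycan abundant in brain matrix. It was at 0.420, 0.706 and 0.151 kb in control and at 24.0, 21.4 and 17.7 kb in mutant. The means were 0.425 ± 0.278 and 21.1 ± 3.17 kb, a ratio of 49.5 and a gap of 25.1-fold between the nearest libraries. The order of its mutant libraries, mut1 over mut2 over mut3, was also that of Cbln1 and Scube1.

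Trhde (ENSMUSG00000050663.7, chromosome 10, 114398823 to 114802307, minus strand) encodes the membrane aminopeptidase that inactivates thyrotropin-releasing hormone. It was at 0.132, 0.305 and 0.123 kb in control and at 4.07, 3.41 and 5.08 kb in mutant. The means were 0.187 ± 0.102 and 4.19 ± 0.842 kb, a ratio of 22.4, and the gap between the nearest libraries was 11.2-fold. Trhde overlaps the antisense genes 4930473D10Rik and Gm15723 on the opposite strand.

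Hpse2 (ENSMUSG00000074852.4, chromosome 19, 42786539 to 43388355, minus strand) encodes heparanase 2, a relative of heparanase that binds heparan sulfate without cutting it and whose human gene is mutated in urofacial syndrome, a disorder of bladder innervation. It was at 1.16, 0.529 and 0.850 kb in control and at 9.83, 10.2 and 12.8 kb in mutant. The means were 0.846 ± 0.316 and 10.9 ± 1.61 kb, a ratio of 12.9, and low control coverage was found in every control library (400 to 979 bases). Annotated genes on the opposite strand, AC124716.2 and the pseudogene Gm6776, lie within its bounds. On the same strand it overlaps the rRNA gene Gm22135 and the processed pseudogene AC124716.1.

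Tmem132b, Scube1 and Gap43 were not silent in control. Tmem132b (ENSMUSG00000070498.3, chromosome 5, 125531774 to 125792583, plus strand), a single-pass membrane protein of a brain-expressed family, was at 6.12, 5.74 and 6.37 kb in control and at 71.0, 79.8 and 45.5 kb in mutant. The means were 6.08 ± 0.315 and 65.4 ± 17.8 kb, a ratio of 10.8. As with Cbln1, mut3 stood low, at 0.696 of the mutant mean.

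Scube1 (ENSMUSG00000016763.15, chromosome 15, 83604999 to 83725021, minus strand), a secreted and cell-surface glycoprotein with CUB and EGF-like domains, was at 13.5, 13.3 and 11.6 kb in control. In mutant it was at 94.5, 80.0 and 67.9 kb, with means of 12.8 ± 1.06 and 80.8 ± 13.3 kb and a ratio of 6.30. Gap43 (ENSMUSG00000047261.9, chromosome 16, 42248442 to 42340651, minus strand), the membrane-bound growth cone protein that marks growing axons, had the smallest ratio of the 10 genes. It was at 3.95, 3.93 and 3.53 kb in control and at 8.15, 8.98 and 8.84 kb in mutant, with means of 3.81 ± 0.235 and 8.66 ± 0.441 kb and a ratio of 2.27. Its mutant libraries were the most alike (coefficient of variation 5.10%), and by ratio it ranked 538 of all genes, so the phrase "switched on" does not describe it. The microRNA gene Mir6540 overlaps Gap43 on the same strand.

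The sequence upstream of the RefSeq transcription start was available for 6 of the 10 genes from RefSeq (GRCm38.p6, the same assembly as mm10). The 250 bases before the start are given for Spock1, the most unequal of those whose window lies wholly before the annotated gene, for Hpse2, the lowest of the 6 in GC content, and for Trhde, the only one without a GC box. They are written 5′ to 3′ on the strand of the gene, and capitals mark the GC box GGGCGG on either strand.
Spock1 (chr13:57908333-57908582, minus strand): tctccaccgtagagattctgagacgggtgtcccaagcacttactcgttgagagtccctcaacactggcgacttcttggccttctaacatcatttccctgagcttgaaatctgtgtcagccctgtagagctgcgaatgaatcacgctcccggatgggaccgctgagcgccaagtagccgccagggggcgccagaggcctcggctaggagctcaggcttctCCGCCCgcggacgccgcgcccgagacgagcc
Hpse2 (chr19:43388356-43388605, minus strand): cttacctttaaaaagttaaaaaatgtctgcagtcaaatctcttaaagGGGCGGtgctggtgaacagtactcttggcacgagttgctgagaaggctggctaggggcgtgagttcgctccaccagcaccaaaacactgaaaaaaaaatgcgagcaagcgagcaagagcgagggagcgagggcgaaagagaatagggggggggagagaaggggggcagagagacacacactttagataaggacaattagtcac
Trhde (chr10:114802303-114802552, minus strand): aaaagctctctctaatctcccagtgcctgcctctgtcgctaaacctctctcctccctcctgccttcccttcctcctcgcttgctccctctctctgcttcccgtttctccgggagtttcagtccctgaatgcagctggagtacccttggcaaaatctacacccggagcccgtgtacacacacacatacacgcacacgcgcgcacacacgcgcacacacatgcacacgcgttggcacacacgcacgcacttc

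A GC box on either strand stood in 5 of the 6 windows (Tmem132b, Spock1, AI593442, Hpse2 and Scube1) and in 32.7% of the 32851 such windows of all RefSeq starts. The TATA box TATAAA on the gene strand stood in none of the 6 and in 7.59% of all windows. Of the REST-binding RE1 element, searched on both strands, the left part TTCAGCACC stood in none of the 6 windows and in 0.301% of all windows. The right part, searched as GGACAGNGC, stood in 1 of the 6, that of AI593442, and in 1.52% of all windows. This part was shortened after a longer form had given no match in these 6 windows, so the match carries no weight. GC content ran from 50% in Hpse2 to 75.2% in Scube1, against a median of 52.4% over all windows. The Trhde window ends in a run of CA and CG repeats, and that of Tmem132b is made largely of C and T. On either strand the E-box CANNTG stood in 3 of the 6 windows and in 66.2% of all, and CCAAT in 1 and 33.8%. The letters TGANTCA, looser than the AP-1 site because any middle base was taken, stood in 1 and 6.75%. The 1 match, in Spock1, reads TGAATCA. The windows of AI593442 and Tmem132b lie inside the bounds of these genes in the GENCODE annotation, whose starts are farther upstream than those of RefSeq. These matches describe the letters of short windows only.

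Per length of exon, the order of the genes differed between the groups. In control, the level per exonic kb was highest for Gap43 (2.50), followed by Scube1 (1.31) and Tmem132b (0.738), and the other 7 genes lay between 0.00861 (Cntnap4) and 0.183 (Hpse2). In mutant, Scube1 (8.22) and Tmem132b (7.94) led, followed by Gap43 (5.68), Cbln1 (4.51), Cbln2 (3.02), Spock1 (2.52), Hpse2 (2.37), AI593442 (2.02), Cntnap4 (0.657) and Trhde (0.519). Neighbours in this mutant order overlapped between libraries, except AI593442 and Cntnap4. The median over all annotated genes of the table was 7.84 in control and 7.63 in mutant. In mutant kidneys Scube1 and Tmem132b were thus near the middle of the measured genes (52.8 and 51.5% of genes were lower), whereas Cntnap4 and Trhde remained among the lowest (2.75 and 1.57%). The annotation used by the authors is not given, nor whether introns were counted. These levels and ranks therefore depend on the GENCODE exon lengths by which coverage was divided.

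**Figure D2:**
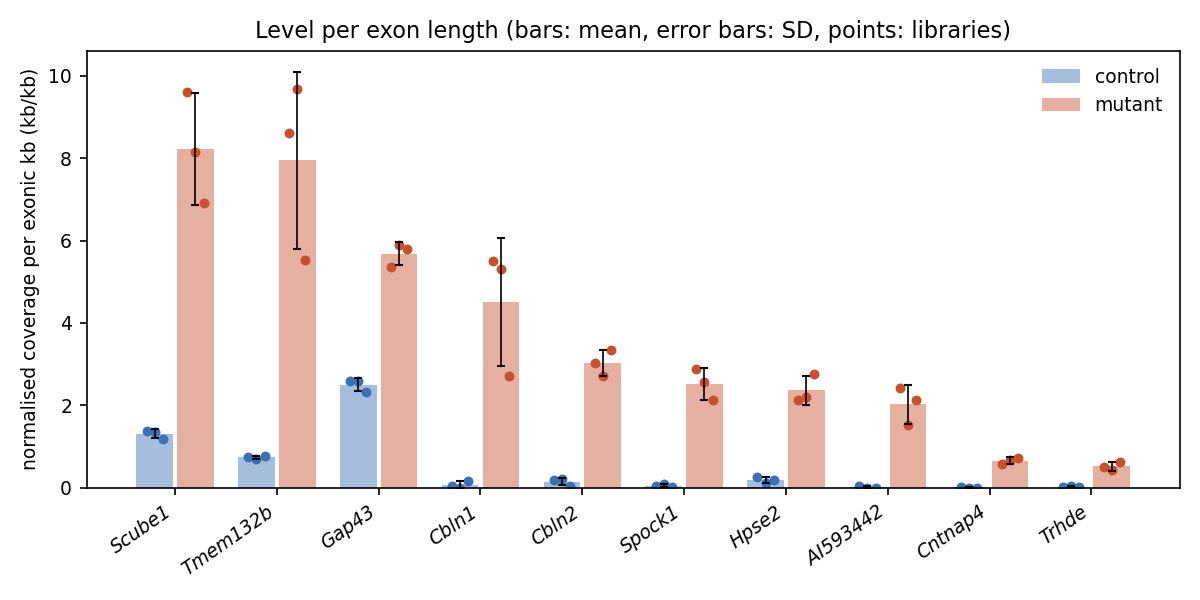
Normalised coverage per exonic kb for each of the 10 genes; bars are group means, error bars are SD (n = 3) and points are libraries. Mutant levels run from 0.519 in Trhde to 8.22 in Scube1, and only Gap43, Scube1 and Tmem132b have control bars above 0.183.

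The 10 genes did not share an order among the mutant libraries. Cbln1, Tmem132b, Spock1 and Scube1 were lowest in mut3, whereas Cbln2, Cntnap4, Trhde and Hpse2 were highest there. AI593442 was lowest in mut2 and Gap43 in mut1. With 3 mutant libraries these orders are a description.

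The pattern of low coverage in control and higher coverage in mutant was not limited to the genes picked. With limits chosen after the values were seen, 21 genes (0.159%) had every control library under 1 kb and every mutant library over 3.4 kb, of which 6 are members. The reverse pattern was found in 10 genes. Among the 15 other genes were Slc5a7, the choline transporter of cholinergic neurons, Htr3a, a serotonin-gated channel, and Npy1r, a neuropeptide Y receptor. Also among them were Fam5b and the clustered protocadherins Pcdha4 and Pcdhac2, whose shared exons make their single values uncertain. Others were Sprr2g, Crisp1, Il1rn, Gm10591, Cilp, Ccl21c, Gm16065 and Fxyd3, among which Sprr2g belongs to epithelial cornified envelopes, Cilp to cartilage and Il1rn and Ccl21c to immune signalling.

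The 5 other genes whose profile over the 6 libraries was most like the mean profile of the 10 were Ccl21a, Gfra3, Htr3a, Slc5a7 and Actg2. Likeness was the Euclidean distance between centred log2 values, at 1.98 for Ccl21a and 2.55 for Actg2. Centring keeps the group difference, so genes with a similar difference come out as alike. The mean profile includes the control values at 0 covered bases of Cbln1, Cntnap4 and AI593442. The distance of the 10 genes themselves from their mean ran from 2.02 (Cbln2) to 7.35 (AI593442). Gfra3, the receptor subunit for the nerve growth factor artemin, was at 1.26, 0.767 and 0.280 kb in control and at 8.57, 9.35 and 11.2 kb in mutant. Htr3a was at 0.301, 0.136 and 0.707 kb in control and at 9.29, 5.41 and 5.84 kb in mutant. Slc5a7 was at 0.348, 0.862 and 0.185 kb in control and at 9.72, 11.2 and 6.62 kb in mutant. In these 3 neural genes every mutant library lay above every control library, an order that the choice by likeness favours. The control means of all 5 genes lay under 3.4 kb, so that they entered the table only through the mutant group. Ccl21a, a chemokine of lymphatic vessels with near-identical copies, went from a mean of 0.918 to 14.2 kb, and Actg2, a smooth muscle actin, from 2.15 to 26.5 kb.

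**Figure D3:**
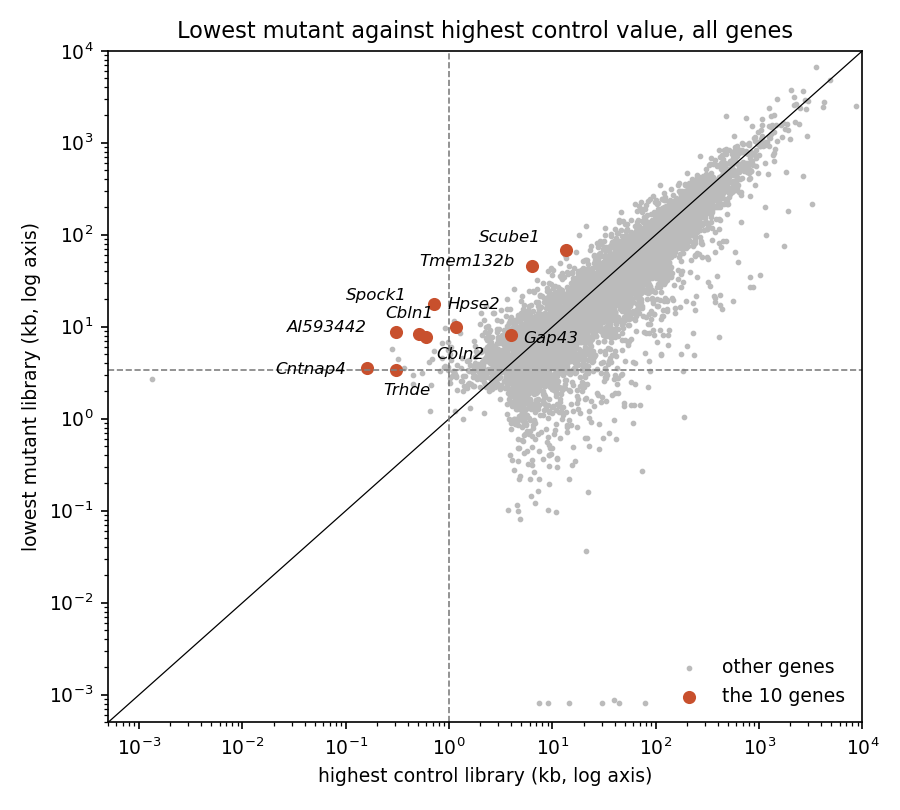
Each point is a gene of the table, with its highest control library on the horizontal and its lowest mutant library on the vertical axis (kb, log axes); the line marks equality and the dashed lines mark 1 kb and 3.4 kb. The 10 genes, in red, lie above the line, and 6 of them lie in the upper left field, which holds 21 genes.

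The relatives and binding partners of the 10 genes were listed by family and function, with earlier results of these data known, and were tested with limma across all genes. At an adjusted p under 0.05, 21.5% of all genes were higher and 24.6% lower in mutant, 46.1% together. Relatives moved in both directions within several families. Among the cerebellins and their partners, 3 of 6 measured genes rose and 2 fell, with a median log2 fold change of 0.75 against -0.03 for all genes. The neurexin gene Nrxn3 rose from 8.39 ± 2.67 to 25.1 ± 7.02 kb (log2 fold change 1.59, limma adjusted p = 0.000277). Nrxn2 did not pass, at 5.97 ± 0.256 and 6.32 ± 1.72 kb (0.04, limma adjusted p = 0.906). Cbln4, another cerebellin, fell from 7.73, 6.07 and 5.06 kb in control to 1.18, 0.934 and 0.725 kb in mutant (-2.74, SE 0.38, limma adjusted p = 0.000156). Grid1, the delta-type glutamate receptor 1, fell too, from 16.6 ± 3.11 to 7.84 ± 2.53 kb (-1.12, limma adjusted p = 0.00292). Cbln3 rose from 1.49 ± 0.386 to 4.13 ± 1.31 kb (1.45, limma adjusted p = 0.0119), a call lost without mut3 (limma adjusted p = 0.0646, the highest of its alternatives, with a lowest of 0.00763). Cbln3 entered the table through the mutant mean alone and Cbln4 through the control mean alone.

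Of the contactins and contactin-associated proteins, which together hold axons and glia in contact, 5 of 7 measured genes rose and none fell (median 1.38). The shares over all genes were 21.5% and 24.6%. For 5 of these 7 the control mean lay under 3.4 kb, so that they had to be higher in mutant to be measured. The 2 covered in both groups rose. They were Cntn1, from 4.78 ± 1.11 to 23.1 ± 7.47 kb (log2 fold change 2.25, limma adjusted p = 3.26e-05), and Cntn4, from 10.5 ± 1.58 to 51.3 ± 13.1 kb (2.26, limma adjusted p = 4.54e-06). The calls among those that entered through the mutant group included Cntnap5b (0.957 ± 0.477 to 6.48 ± 2.62 kb, 2.85) and Cntn3 (2.91 ± 0.244 to 7.56 ± 0.252 kb, 1.38).

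Within the Tmem132 family, Tmem132d rose from 2.06, 2.28 and 1.71 kb to 23.4, 17.8 and 16.7 kb (log2 fold change 3.25, SE 0.23, limma adjusted p = 1.69e-06), entering the table through the mutant mean. Tmem132c rose from 8.98 ± 1.03 to 37.3 ± 6.99 kb (2.04, limma adjusted p = 4.55e-06). Tmem132a, at 267 ± 19.2 kb the most covered of the family, was at 210 ± 40.4 kb in mutant (-0.36, limma adjusted p = 0.0296). That call was lost without con1, con2, mut2 or mut3 and without the variance trend, with limma adjusted p of 0.00107 to 0.110 over its alternatives. Tmem132e did not pass, at 4.68 ± 0.386 and 4.13 ± 1.29 kb (-0.23, limma adjusted p = 0.556). Scube3 fell from 106 ± 4.38 to 61.7 ± 2.25 kb (-0.79, limma adjusted p = 2.99e-05), opposite to Scube1, and Scube2 did not pass, at 6.25 ± 1.43 and 9.33 ± 2.73 kb (0.56, limma adjusted p = 0.0872).

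Of the matrix proteins related to Spock1, 4 of 5 rose and none fell (median 1.20), and all 5 were covered in both groups. Among all genes covered in both groups, 20.6% rose and 24.1% fell. Smoc2 rose from 77.6 ± 9.14 to 254 ± 8.16 kb (log2 fold change 1.72, limma adjusted p = 4.95e-07), Sparcl1 from 165 ± 31.5 to 504 ± 37.4 kb (1.63, 2.35e-06) and Spock2 from 235 ± 14.2 to 550 ± 133 kb (1.20, 5.26e-05). Sparc rose less, from 981 ± 3.43 to 1372 ± 98.5 kb (0.48, limma adjusted p = 0.000492). Fstl1 did not pass, at 1836 ± 21.2 and 1709 ± 104 kb (-0.10, limma adjusted p = 0.295), and was called lower under quantile normalization (-0.28, limma adjusted p = 0.0155, the lowest of its alternatives, with a highest of 0.582).

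**Figure D4:**
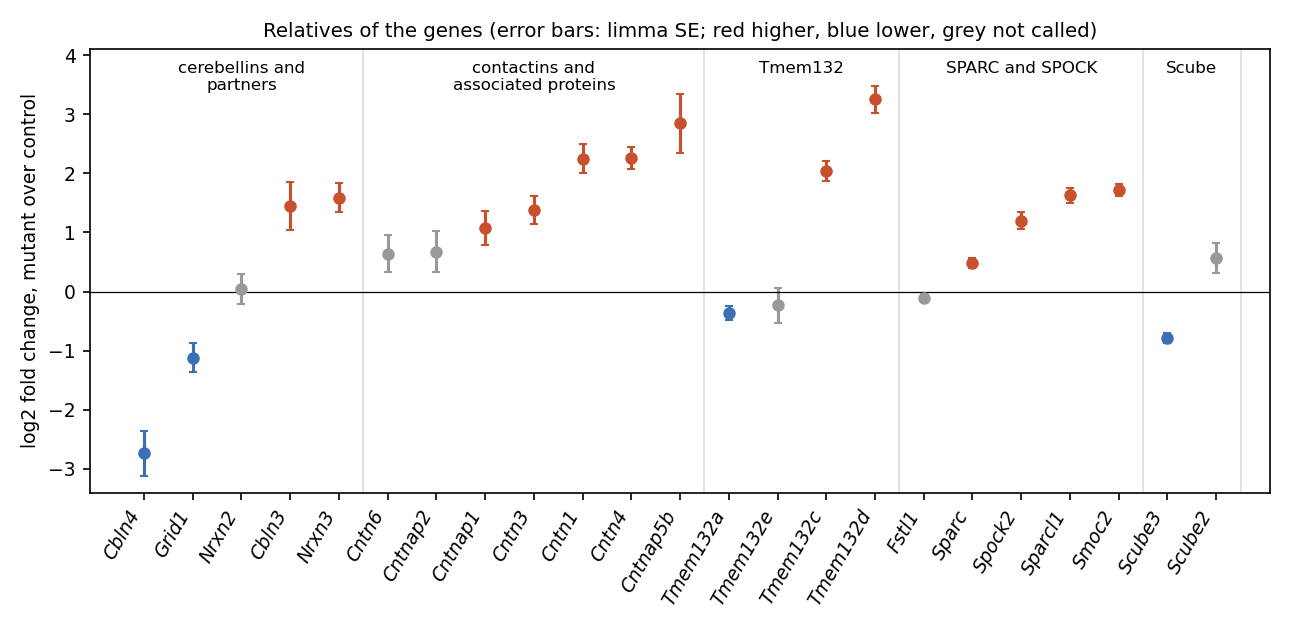
Log2 fold change, mutant over control, of measured relatives and partners in 5 families, with the limma SE as error bars; red points were called higher, blue points lower and grey points neither at an adjusted p of 0.05. Cbln4 at -2.74 and Tmem132d at 3.25 mark the ends of the range.

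Of 10 measured genes of the thyrotropin-releasing hormone system and the M1 aminopeptidases related to Trhde 1 rose, 4 fell and 5 did not pass, with a median log2 fold change of -0.26, against 21.5% and 24.6% of all genes that rose and fell. Enpep (461 ± 28.4 to 186 ± 16.6 kb, -1.31, limma adjusted p = 1.23e-06) and Anpep (117 ± 11.5 to 59.9 ± 6.67 kb, -0.96, 3.99e-05), both enzymes of the proximal tubule brush border and the former also of podocytes, fell. Pgpep1 fell from 154 ± 12.7 to 118 ± 13.3 kb (-0.40, limma adjusted p = 0.00856), and Lnpep rose from 64.5 ± 5.50 to 95.1 ± 13.8 kb (0.55, limma adjusted p = 0.00267). Trh itself was at 3.31, 4.59 and 1.90 kb in control and at 5.15, 6.46 and 2.78 kb in mutant, overlapping ranges that did not pass (0.56, limma adjusted p = 0.279).

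Of 27 measured genes for heparan sulfate synthesis, editing and core proteins, the substrate class of heparanases, 15 rose and 4 fell (median log2 fold change 0.24). The shares over all genes stood at 21.5% and 24.6%. Sulf1, an extracellular sulfatase, rose from 45.2 ± 6.32 to 114 ± 6.02 kb (1.34, limma adjusted p = 4.58e-06), and the glypican gene Gpc5 fell from 13.7 ± 2.69 to 5.97 ± 0.170 kb (-1.18, 0.000551). The sulfotransferase genes Ndst3 (4.37 ± 1.76 to 9.25 ± 1.51 kb, 1.16, limma adjusted p = 0.0102) and Hs6st3 (1.06 ± 0.264 to 3.44 ± 1.44 kb, 1.64, 0.0151) rose. Hs6st3 entered the table through the mutant mean, and its call was lost without mut3 (limma adjusted p = 0.0854, the highest of its alternatives, with a lowest of 0.00829).

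Of 21 measured synaptic adhesion and organiser genes 17 rose and 1 fell, with a median log2 fold change of 0.77. Of the 15 covered in both groups 11 rose and 1 fell, against 20.6% and 24.1% of all 12360 genes covered in both groups. Adgrl3, a latrophilin, rose from 61.5 ± 3.65 to 188 ± 6.81 kb (1.61, limma adjusted p = 4.05e-07). The largest changes were in Lrrtm4 (0.647 ± 0.230 to 4.14 ± 0.932 kb, 2.72), Slitrk5 (2.33 ± 0.302 to 9.41 ± 2.08 kb, 4.04-fold) and Cadm3 (1.72 ± 0.706 to 5.96 ± 0.791 kb, 1.85), which entered the table through the mutant mean. Of 12 measured axon growth and growth cone genes, the class of Gap43, 5 rose and 2 fell (median 0.24). Among all genes these shares were 21.5% and 24.6%. Dpysl3 (19.3 ± 3.57 to 33.1 ± 3.26 kb, 0.79), Map1b (161 ± 14.2 to 233 ± 27.5 kb, 0.53) and Basp1 (46.4 ± 0.804 to 65.97 ± 8.39 kb, 0.50) rose. Dpysl5, which entered the table through the control mean alone, was at 5.67 ± 1.19 and 2.96 ± 0.449 kb (-0.93, limma adjusted p = 0.0196), a call lost without con1, con2 or mut3 (0.00851 to 0.0897 over its alternatives). The number of falls in the list ran from 1 to 3.

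REST and its partners were covered in all libraries. Rest was at 208, 203 and 219 kb in control and at 290, 283 and 268 kb in mutant (log2 fold change 0.41, SE 0.08, limma adjusted p = 0.00113). Of 11 measured genes of the repressor complex 4 rose and none fell, with a median of 0.11. Among all genes 21.5% rose and 24.6% fell. Sin3b rose by 0.39 (limma adjusted p = 0.00391). The calls of Rcor1 (0.37) and Rcor3 (0.48) were each lost without con1 or mut2, and that of Rcor3 also without con2, mut1 or mut3. Their limma adjusted p ran from 0.00846 to 0.0942 and from 0.0221 to 0.146. Over the alternatives the number of rises in the list ran from 2 to 4 and that of falls from 0 to 1.

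Markers of neurons, nerves and glia moved in both directions beside the 10 genes. Of 37 listed markers of neurons, sympathetic and sensory nerves and glia, 14 were in the table. Of these 14, 6 rose, 2 fell and 6 did not pass, with a median log2 fold change of -0.07. Among all genes 21.5% rose and 24.6% fell. The number of these markers that fell was 4 without con3 and 4 without mut2. The 2 marker lists differed. Of the 7 measured neuron markers 1 rose and 1 fell (median -0.32). Of the 7 measured sympathetic, sensory and glial markers 5 rose and 1 fell (median 0.72). Syp, a synaptic vesicle protein, rose from 5.77 ± 1.07 to 11.6 ± 0.520 kb (1.03, limma adjusted p = 0.00153), and Mapt, which encodes the axonal protein tau, fell from 22.8 ± 0.385 to 8.07 ± 1.60 kb (-1.51, 3.64e-05). The neurotrophin receptor gene Ntrk2 (10.9 ± 1.35 to 40.2 ± 5.96 kb, 1.89, limma adjusted p = 3.92e-06) and the myelin gene Mbp (4.67 ± 0.652 to 8.62 ± 0.864 kb, 0.89, 0.00606) rose. Ngfr fell from 52.9 ± 7.66 to 28.2 ± 4.51 kb (-0.91, limma adjusted p = 0.000353). Summed over the list, the 7 measured neuron markers held 99.8 to 126 kb in control and 81.5 to 97.9 kb in mutant, and the 7 sympathetic, sensory and glial markers 148 to 152 and 178 to 199 kb. The other 23 markers, among them Tubb3, Snap25, Th and Sox10, and all 17 listed proneural and neural transcription factors were not analysed here.

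Markers of stroma, smooth muscle and leukocytes were higher in the same mutant libraries. The counts below stand beside 21.5% of all genes that rose and 24.6% that fell. Of 15 stroma markers 14 rose, and their summed level was 5145 to 5357 kb in control and 8594 to 10901 kb in mutant. Pdgfra, Lum, Penk and Crabp1 rose by 1.69, 1.86, 1.83 and 2.17 on the log2 scale. Of 9 smooth muscle markers 7 rose (sum 513 to 638 against 940 to 1341 kb), with Myocd at 2.43, Myh11 at 2.03 and Cnn1 at 1.90. Actg2 and Lmod1 entered the table through the mutant mean alone, and of the 7 covered in both groups 5 rose. Of 5 measured leukocyte markers 3 rose, Csf1r (1.20), Cx3cr1 (1.37) and Adgre1 (1.48), while Ptprc (0.38) and Itgam (0.64) did not pass. Of 8 nephron progenitor markers 6 fell and 2 rose, among them Cited1 (-3.51), Uncx (-2.82) and Meox2 (-2.49), and Osr1 (1.29). Meox2 entered the table through the control mean alone, and of the 7 covered in both groups 5 fell and 2 rose. Of 6 endothelial markers Cdh5 (0.41) rose, a call kept in every alternative run. Pecam1 (0.23) rose and Emcn (-0.30) fell, and both calls were lost without con1 or con2 and, for Pecam1, also without mut2, mut3 or the variance trend. Kdr, Tek and Flt1 did not pass, though Kdr was called higher without mut1 (limma adjusted p = 0.00852, with a highest of 0.217 over its alternatives) and with trimmed-mean scaling, and Itgam without the variance trend (0.0258, with a highest of 0.272). By the means, the summed markers rose 1.87-fold for stroma, 1.92-fold for smooth muscle and 2.15-fold for leukocytes. Genes of high coverage weigh most in these sums. Col3a1 and Col1a2, at 1.71- and 1.73-fold, held most of the stroma sum. The median log2 fold change per marker was 1.18 for stroma, 1.72 for smooth muscle and 1.20 for leukocytes. Over the markers covered in both groups it was 1.18, 0.80 and 1.29. The sum of the 10 genes went from 23.3 to 26.5 kb in control to 193 to 255 kb in mutant, 9.19-fold. Most of it came from Scube1 (means 12.8 and 80.8 kb) and Tmem132b (6.08 and 65.4 kb), which were not silent in control. The sum thus says little of the genes silent in control. The 10 genes were picked on this difference, so their fold cannot be weighed against those of the marker lists. In RNA of a whole organ, more cells of a type and more RNA per cell cannot be told apart, and the part of these cell types in the coverage of the 10 genes was not tested.

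**Figure D5:**
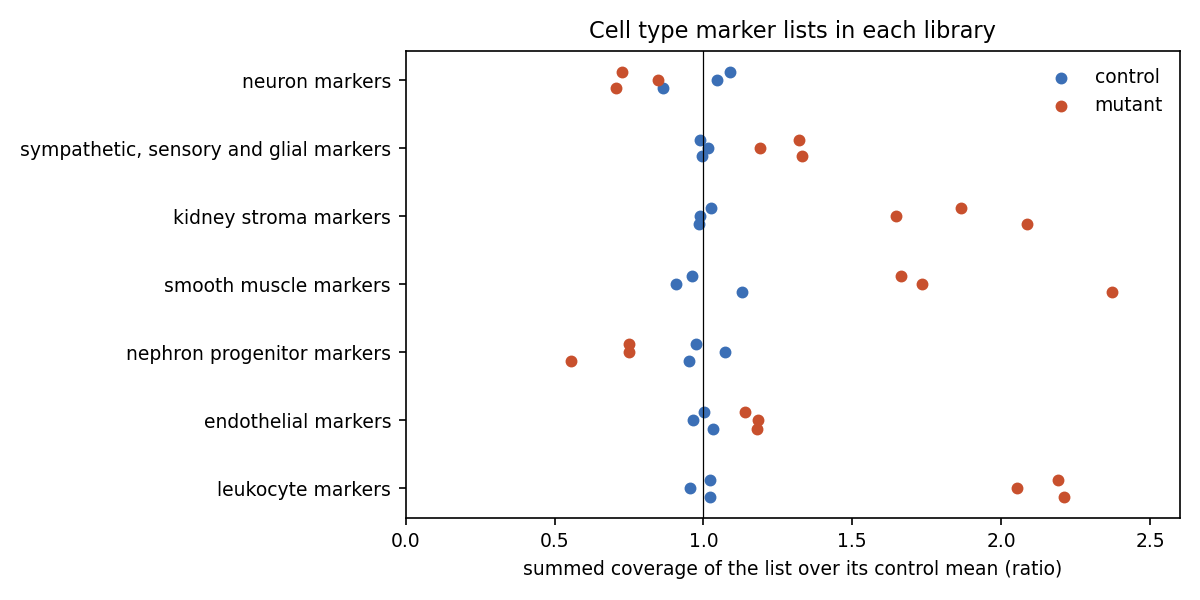
Summed coverage of each marker list in each library, divided by the mean of the 3 control libraries (ratio). Mutant points of the stroma, smooth muscle and leukocyte lists lie at 1.65 to 2.37 and those of the nephron progenitor list at 0.555 to 0.751, while the neuron list lies at 0.706 to 0.847. Mutant points of the sympathetic, sensory and glial list lie at 1.19 to 1.33.

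Within 1 Mb, 15 measured neighbours were found for 9 of the 10 genes, at 6.56 to 753 kb, of which 4 rose, 5 fell and 6 did not pass (median log2 fold change 0.07), beside 21.5% of all genes that rose and 24.6% that fell. The closest, Hps1 beside Hpse2, was at 20.7 ± 0.837 and 21.8 ± 2.58 kb (0.07, limma adjusted p = 0.687), and Ttll12 beside Scube1 was at 87.9 ± 7.59 and 97.0 ± 4.42 kb (0.15, 0.219). Aacs, 14.4 kb from Tmem132b, was at 52.3 ± 3.07 and 43.2 ± 1.97 kb (-0.28, limma adjusted p = 0.0382). The largest change was that of Zfp423, 189 kb from Cbln1, which rose from 61.8 ± 7.99 to 130 ± 11.1 kb (1.08, limma adjusted p = 1.88e-05). Zbtb20 (0.64), 535 kb from Gap43, and Smad5 (0.46), 679 kb from Spock1, rose and Samm50 (-0.61), 467 kb from Scube1, fell. Mon1b (0.26) lay 753 kb from Cntnap4, Klhl3 (-0.41) 91.9 kb from Spock1, Got1 (-0.45) 111 kb from Hpse2 and Ddx10 (-0.37) 419 kb from AI593442. Their calls and that of Aacs were each lost when 1 of several libraries was left out. In this order, their limma adjusted p reached up to 0.145, 0.115, 0.158, 0.0775 and 0.150. N4bp1, Terf2ip, Tbc1d15 and Zc3h12c did not pass, at 0.17, 0.19, -0.15 and -0.19.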

How the data were processed

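Per the labels, total RNA of whole E17.5 kidneys was depleted of ribosomal RNA and made into Ion Total RNA-seq libraries. The submitters' processing notes name mm10 and bedtools, and the aligner, the annotation and the use of strand are not given in the sources used. Deposited by the authors was a coverage signal per gene and library, with group means, their ratio and p-values and q-values, of which the p-values and q-values were not used. Low coverage values were whole multiples of a step per library (100% within 0.02 of a step), so the signal was read as covered bases plus 1, brought to 1 total in all libraries, with no division by length. It counts bases, not reads, so the read number is unknown. Columns name a group and a running number, not an animal, and were assigned to groups only.

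Values were tested as log2(value + 1) with limma 3.58.1 (R 4.3.3; empirical Bayes, variance trend, two-sided), with Benjamini-Hochberg adjustment over 13203 genes and a threshold of 0.05. The script was tested on simulated data. Exon lengths and neighbours came from GENCODE M21 (13092 genes matched, 656 of them through synonyms listed by RefSeq). Named genes were the members, Smarca4, all measured genes of lists of up to 7 symbols, up to 4 called genes with the largest change of longer lists, neighbours within 1 Mb and the 5 genes of most similar profile. Ntrk3, Erbb3 and other called genes beyond that limit are counted and not described. Trh and the genes silent in control were named after their values were seen. The members and lists were chosen with earlier results of these data known. The right part of the RE1 motif was shortened to 9 letters after a longer form had given no match in the 6 windows. Some genes counted in the lists are not reported here by name.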

Additional observations from a re-analysis of the deposited data

How the results depend on the processing

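The alternatives were pseudocounts of 100 and 1000, a mean of at least 3400 units, trimmed-mean scaling, quantile normalization, no variance trend and leaving out each library. The genes higher in mutant numbered 2844 (2243 to 2667 with 1 library left out) and the genes lower in mutant 3243 (2528 to 3163). They numbered 3154 and 2912 under quantile normalization and 3052 and 3052 with trimmed-mean scaling, so the excess of lower genes depended on the scaling. The neural markers called lower numbered 2, and 2 to 4 with 1 library left out. The 6 called higher stayed 6 in number throughout. With 1 library left out, the sign turned in 3 genes, which did not pass in any fit. Hps1 ran from -0.023 (without mut1) to 0.14, Nrxn2 from -0.091 (without mut2; also below 0 without mut3) to 0.29, and Tmem132e from -0.44 to 0.035 (without mut3). For the 10 genes, the log2 fold change depended on the pseudocount and on single libraries where control was near 0. With a pseudocount of 1000, AI593442 was at 3.52, Cntnap4 at 2.28, Cbln1 at 3.56 and Gap43 at 1.01. Without con1, AI593442 was at 12.4 and Cntnap4 at 10.9, and Cbln1 was at 9.55 without con3, against 10.04, 8.85 and 7.93 with all libraries. With the minimum mean, Cntnap4, Trhde, Lrrtm4, Hs6st3 and Cbln3 were not tested. For the other named genes, 51 values lost a call under an alternative, 4 gained a call and 1018 kept their direction and side of the threshold. The median over all genes was -0.03, and 0.01 under quantile normalization. No paired analysis was possible because the table's columns carry no animal number and the labels share none between groups. Genes whose higher group mean was under 3.4 kb were not analysed here, and 3 kidneys per group limit every comparison.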
